A study of Mus musculus with 4 samples.

Results

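The genes described here build ribosomes in the nucleolus: 68 of the 12020 usable genes of the deposited count table, measured in resting and receptor-stimulated natural killer T (NKT) cells of the mouse. Of these, 48 were taken because their symbol begins with Nop, Utp, Rrp or Nol and a digit, or with Polr1 or Exosc, and 20 because they stand in a list of further nucleolar proteins from Ncl to Nob1. All 68 passed the filter on low counts. By textbook role, 5 encode subunits of RNA polymerase I, 4 the box C/D particle or the U3 particle, 4 the box H/ACA particle, 21 factors of the small subunit, 16 factors of the large subunit, 5 abundant nucleolar proteins, and 10 the RNA exosome. The other 3 (Nol3, Nol4l and Nol8) were taken by name and given no role in ribosome assembly here.

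Both groups carried the same alleles. The labels give C57BL/6 mice of 10 to 12 weeks with a Va14 transgene for the receptor and GFP at one Cxcr6 locus (Va14 Tg.cxcr6gfp/+), from which NKT cells were sorted as GFPhi. One group was kept resting and the other was stimulated on plates coated with mCD1d-PBS57 tetramers, that is, mouse CD1d holding a lipid that the NKT receptor binds. Each group has 2 libraries, called 4 and 5 after the deposited column names, and no label used here states how long the cells were stimulated. The tissue label is liver, whereas the protocol text names livers or spleens for sorting and islets for extraction. Since every NKT cell carried the transgenic receptor chain, the cells are a model with 1 fixed receptor chain, and no label says that each library is a different animal, so every p-value reflects only how far these libraries differ, perhaps for technical reasons.

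As background, ribosomes are made in the nucleolus, where RNA polymerase I copies the ribosomal DNA into a long precursor RNA. Small nucleolar RNAs (snoRNAs) held in box C/D and box H/ACA particles guide its methylation and pseudouridylation, large assemblies fold and cut the precursor into the RNAs of the small and the large subunit, and the RNA exosome trims and degrades the excised pieces. Lymphocytes enlarge their nucleoli when they leave rest and grow.

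Total counts ran from 4168438 to 5495521 per library. All 12 markers of NKT and T cells were in the table, including Cd3e at 119 to 295 CPM and Zbtb16, the transcription factor that defines the NKT lineage, at 55.7 to 152 CPM. CPM here means counts scaled to a library of 1e+06 after TMM adjustment, which sets each library's size so that most genes keep their ratio. The table lists no gene with 0 counts in any library. Of other cells it held 8 of 10 B cell, 4 of 12 macrophage, 4 of 10 neutrophil, 3 of 12 hepatocyte, 3 of 10 endothelial and 5 of 8 dendritic cell markers, and defining genes such as Pax5, Lyz2, Ly6g, Alb, Cdh5 and Flt3 were not among them. Summed over tested markers, the CPM was 73.5 and 123 at rest against 49.7 and 61.5 after stimulation for B cells, 191 and 313 against 115 and 122 for neutrophils, and 19.1 and 23.1 against 7.98 and 8.09 for macrophages. It was 38.5 and 59.0 against 13.7 and 18.2 for hepatocytes, 78.9 and 35.5 against 13.7 and 18 for endothelial cells, and 275 and 291 against 116 and 297 for dendritic cells. The marker with the most counts had a log2 fold change of -1.22 for B cells (Cd22), -1.89 for neutrophils (Csf3r), -1.94 for macrophages (Csf1r), -1.83 for hepatocytes (Serpina1a), -2.00 for endothelial cells (Pecam1), -0.69 for dendritic cells (Xcr1) and 0.09 for NKT and T cells (Il2rb). Single markers did not always follow these. Of 5 tested dendritic cell markers 2 rose, Itgax (3.16) and Zbtb46 (1.99), 0 fell, and the median was 0.85. Of 12 NKT and T cell markers 1 rose, Zap70 (1.33), and 2 fell, Il7r (-4.02) and Cxcr6 (-1.26), with a median of 0.45. Cxcr6 carries the GFP allele by which the cells were sorted. None rose and 3 of 4 neutrophil, 2 of 3 hepatocyte, 1 of 2 macrophage and 1 of 2 endothelial markers fell. Of 6 tested markers of dividing cells 5 rose (3 were called without tetramer library 4), with a summed 132 and 147 CPM at rest and 738 and 470 CPM after stimulation (Mcm5 2.57). The part of these cell types and of division in the results below was not tested. In bulk RNA, more of a transcript per cell and more cells that carry it cannot be told apart.

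After stimulation 43 of the 68 nucleolar genes rose, 0 fell and 25 were not called, 6 of the 68 having a log2 fold change below 0 (edgeR, quasi-likelihood, adjusted p under 0.05, the meaning of "called" throughout), where 14.3% of all 11312 tested genes were called higher and 12.1% lower. A gene not called is not shown to be unchanged. The shares of 14.3% and 12.1% are to be set beside each count of a role below with all libraries. At an unadjusted p under 0.05, 0 fell, and 0 fell by DESeq2 or limma-voom. The median log2 fold change (tetramer over resting) was 1.51, against -0.06 over all tested genes, and 24 of 68 had a mean CPM at least 4 times as high, a size that 6.16% of all tested genes reached. Both tetramer libraries lay above both resting libraries for 58 of the 68, where 31.6% of all tested genes did so, and below for 1, Nol3, where 33.7% did. Summed over the 68 genes, the CPM of libraries 4 and 5 was 3425 and 3690 at rest, and 12400 and 12253 after stimulation. The groups lay far apart in this total, and the libraries within each were close.

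**Figure D1:**
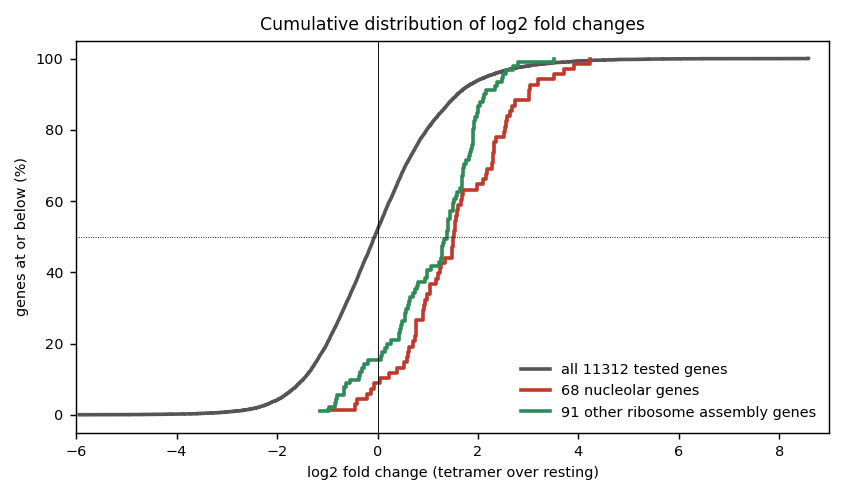
Cumulative share of genes (vertical axis, percent) at or below each log2 fold change of tetramer over resting (horizontal axis) for all 11312 tested genes (grey), the 68 nucleolar genes (red) and 91 other ribosome assembly genes (green). The median is -0.06 for all genes, 1.51 for the nucleolar genes and 1.38 for the other assembly genes.

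The calls were not equally firm. Of the 43 genes that rose, 29 were also called higher with each single library left out in turn, and 29 were called under every alternative run. Without tetramer library 4, 30 of the 68 were called (5.33% of all genes tested then), and without tetramer library 5, 38 (9.89%). Such a fit takes the spread of the lone library's group from the other pair. The median stayed between 1.47 and 1.51 over the 4 fits without 1 library. With library totals in place of TMM factors the median of all genes moved from -0.06 to -0.35 and that of the 68 genes from 1.51 to 1.21, with 39 called higher and 0 lower, so fold changes are relative to the TMM scaling. The same change split all calls into 1193 higher and 2250 lower, in place of 1620 and 1366.

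**Figure D2:**
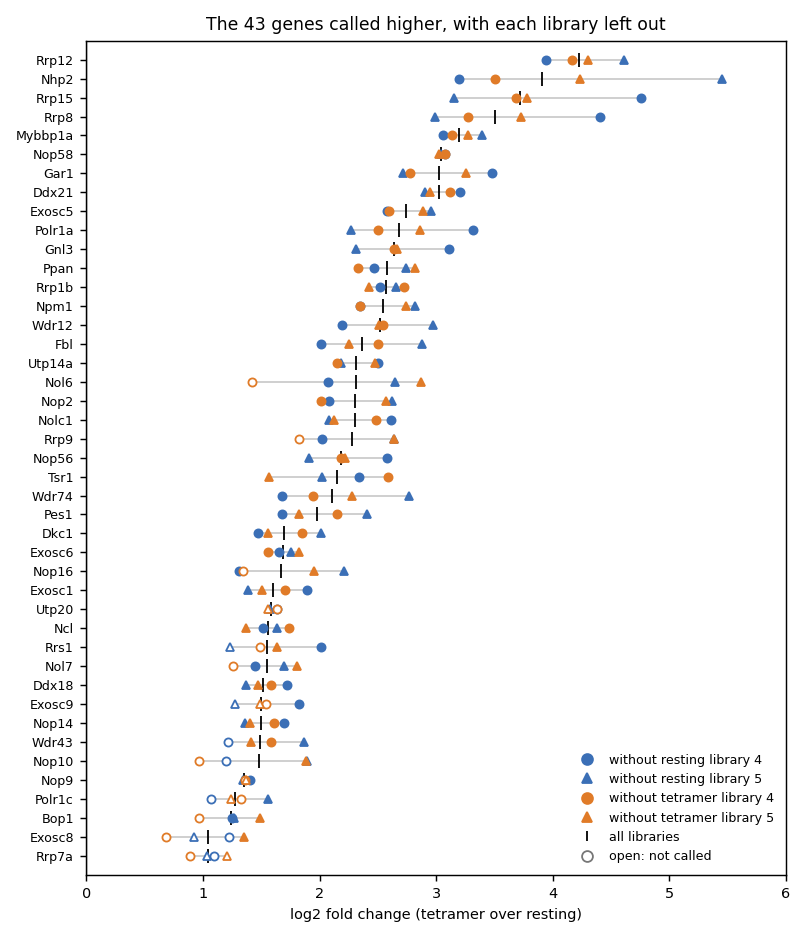
Log2 fold change (tetramer over resting) of the 43 genes called higher, with all libraries (black bar) and without each library (blue for a resting and orange for a tetramer library left out, circles for library 4 and triangles for library 5). Open symbols are fits in which the gene was not called, 13 of the orange circles (without tetramer library 4) among them, against 5 or fewer for each other library.

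Of the 5 RNA polymerase I subunits measured under the Polr1 name, 2 rose and 0 fell. Polr1a encodes the largest subunit, which carries part of the active site. It stood at 8.91 CPM in resting library 4 and 4.27 in resting library 5, and at 47.9 CPM in tetramer library 4 and 37.0 in tetramer library 5. The groups did not overlap, and its log2 fold change was 2.68 ± 0.51 (SE, edgeR adjusted p = 4.01e-04), with a range of 2.27 to 3.32 when single libraries were left out, highest without resting library 4. Polr1c, a subunit that RNA polymerases I and III share, had 69.8 and 97.4 CPM at rest and 197 and 207 CPM after stimulation. It was higher in both tetramer libraries (log2 fold change 1.27 ± 0.37 SE, edgeR adjusted p = 0.0123), a call that needed every library but resting 5 (adjusted p without resting 4, tetramer 4 and tetramer 5 was 0.0896, 0.0774 and 0.0639). Polr1d, the other shared subunit and the one with the most counts, had 149 and 111 CPM at rest and 197 and 144 CPM after stimulation, where the groups overlapped (log2 fold change 0.39 ± 0.37 SE, edgeR adjusted p = 0.450).

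Polr1b encodes the second largest subunit, which forms the active site together with Polr1a. It had 22.6 and 48.1 CPM at rest and 27.2 and 24.7 CPM after stimulation, so the tetramer libraries lay between the resting ones (log2 fold change -0.44 ± 0.46 SE, edgeR adjusted p = 0.496, and 0.22 without resting library 5). The ratio of Polr1a to Polr1b CPM was 0.394 and 0.0889 in the resting libraries and 1.76 and 1.5 in the tetramer libraries, and the groups did not overlap. With 2 libraries a group no permutation test of such a ratio can fall below 0.05, so it is given as a description. Polr1e, a subunit of the initiation module, had 35.0 and 31.6 CPM at rest and 48.9 and 63.9 CPM after stimulation (log2 fold change 0.76 ± 0.41 SE, edgeR adjusted p = 0.171), above both resting libraries but not called.

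The table holds 3 further subunits and 7 factors of RNA polymerase I under older names or other symbols. Of these 10 genes 2 rose and 0 fell, with a median log2 fold change of 0.58, where 14.3% of all tested genes were called higher, a share to be set beside each polymerase count here. Both tetramer libraries lay above both resting ones for 5 of the 10 (31.6% of all tested genes) and below for 3 (33.7%). Those 3, named after their values were seen, were Ubtf (-0.27), Taf1a (-0.97) and Ttf1 (-0.66), and none was called. Cd3eap, the partner of Polr1e, had 40.8 and 51.1 CPM at rest and 125 and 119 CPM after stimulation (log2 fold change 1.41 ± 0.38 SE, edgeR adjusted p = 0.00719). Taf1d, a subunit of the selectivity factor that recruits the polymerase to its promoter, had 103 and 109 CPM at rest and 292 and 260 CPM after stimulation (1.38 ± 0.36 SE, edgeR adjusted p = 0.00667). Neither was called without tetramer library 4 (adjusted p = 0.0774 for Cd3eap and 0.0799 for Taf1d). Among RNA polymerase III subunits 3 of 10 tested rose and 1 fell (median 0.67), with Polr3d at 2.41 ± 0.44 and Polr3e at 2.35 ± 0.46 on the log2 scale. The 1 that fell was Polr3gl, named after its values were seen, at -1.47 ± 0.43, not called once resting library 5 (adjusted p = 0.2) or tetramer library 4 (0.190) was left out. Among 13 RNA polymerase II subunits, the ones shared with the other polymerases included, 4 rose and 0 fell (median 0.85). Without tetramer library 4 fewer of them were called, and their median was 0.39. Polr2l, which all 3 polymerases share, had 249 and 278 CPM at rest and 1059 and 900 CPM after stimulation (1.89 ± 0.38 SE, edgeR adjusted p = 5.86e-04). Polr2f, also shared by all 3, had a log2 fold change of 1.5 ± 0.46, not called once resting library 4 or tetramer library 4 was left out. Other shared subunits, named after their values were seen, were not called: Polr2e (0.34 ± 0.40 SE, edgeR adjusted p = 0.557), Polr2h (0.85 ± 0.46, 0.168) and Polr2k (1.04 ± 0.40, 0.0532).

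**Figure D3:**
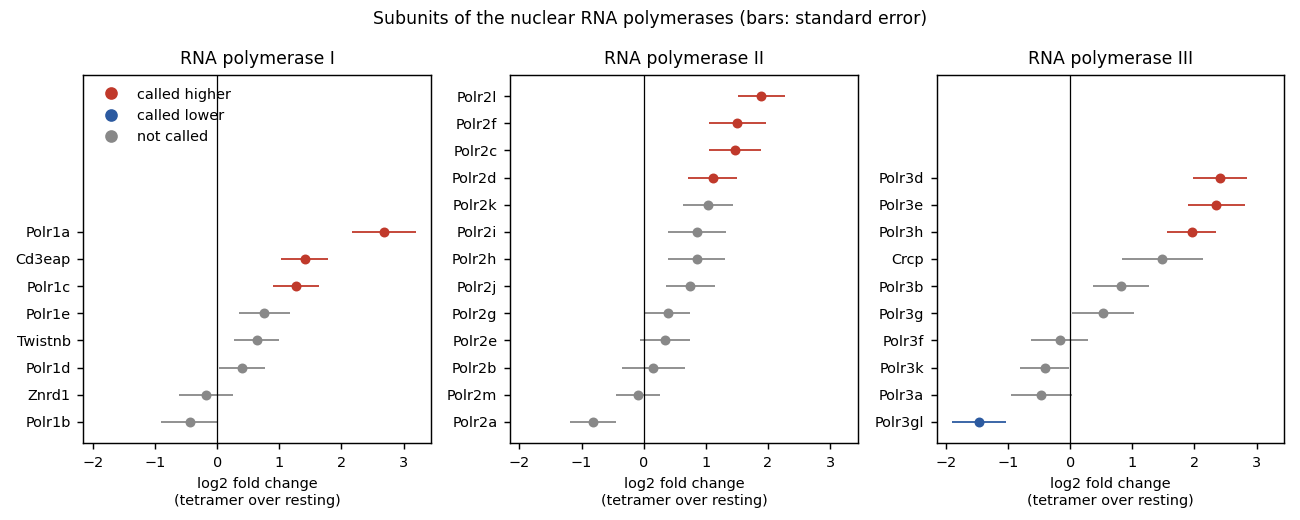
Log2 fold change (tetramer over resting) with its standard error for subunits of RNA polymerases I, II and III, where Cd3eap, Twistnb and Znrd1 are RNA polymerase I subunits under older symbols and red, blue and grey mark genes called higher, called lower and not called. In each enzyme some subunits were called and others were not, with Polr1a at 2.68 and Polr1b at -0.44.

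All 5 abundant nucleolar proteins rose, and each call held without any single library. Ncl, nucleolin, binds the precursor RNA and had the most counts of the 68 genes. It stood at 470 CPM in resting library 4 and 506 in resting library 5, and at 1255 CPM in tetramer library 4 and 1612 in tetramer library 5, with no overlap (log2 fold change 1.56 ± 0.38 SE, edgeR adjusted p = 0.00371). Npm1, nucleophosmin, a histone chaperone and scaffold of the outer nucleolus, had 186 and 257 CPM at rest and 1474 and 1114 CPM after stimulation (2.55 ± 0.40 SE, edgeR adjusted p = 3.76e-05), though it has many processed pseudogenes that can share its reads. Ddx21, an RNA helicase that binds both the ribosomal DNA and snoRNAs, had 135 and 109 CPM at rest and 934 and 1046 CPM after stimulation (3.02 ± 0.39 SE, edgeR adjusted p = 3.75e-06). Mybbp1a, a nucleolar Myb-binding protein that takes part in precursor processing, went from 26.3 and 32.9 CPM to 285 and 258 CPM (3.20 ± 0.39 SE, edgeR adjusted p = 2.06e-06). Nolc1, a chaperone that carries snoRNA particles, had 81.6 and 56.0 CPM at rest and 299 and 380 CPM after stimulation (2.30 ± 0.39 SE, edgeR adjusted p = 8.76e-05).

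The 4 members of the box C/D and U3 particles all rose. Nop58 and Nop56 form the scaffold on which the particle is built, and Fbl, fibrillarin, is its methyltransferase. Nop58 had 76.0 and 73.9 CPM at rest and 608 and 625 CPM after stimulation, the closest agreement within groups of the 4, with a log2 fold change of 3.04 ± 0.39 (SE, edgeR adjusted p = 3.06e-06). Nop56 had 217 and 136 CPM at rest and 815 and 791 CPM after stimulation (2.19 ± 0.39 SE, edgeR adjusted p = 1.73e-04), and Fbl had 99.6 and 180 CPM at rest and 662 and 783 CPM after stimulation (2.37 ± 0.40 SE, edgeR adjusted p = 8.93e-05). For all 3 both tetramer libraries exceeded both resting ones, the resting libraries of Fbl and Nop56 differing from each other in opposite directions. Rrp9, a protein specific to the U3 particle, had 7.67 and 11.8 CPM at rest and 60.4 and 34.0 CPM after stimulation (2.28 ± 0.49 SE, edgeR adjusted p = 0.00115), a call lost without tetramer library 4 (adjusted p = 0.0755).

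The 4 proteins of the box H/ACA particle rose as well. Nhp2, an RNA-binding core protein, stood at 7.46 CPM in resting library 4 and 35.5 in resting library 5, and at 403 CPM in tetramer library 4 and 240 in tetramer library 5. The resting libraries stood at a ratio of 0.210 to each other, the widest gap among the 68 genes, and the log2 fold change of 3.90 ± 0.52 (SE, edgeR adjusted p = 4.67e-06) ranged from 3.19 to 5.45 without single libraries, highest without resting library 5. Gar1, which helps the enzyme release its target, had 4.76 and 2.78 CPM at rest and 36.2 and 25.7 CPM after stimulation (3.03 ± 0.56 SE, edgeR adjusted p = 2.57e-04). Dkc1, dyskerin, the pseudouridine synthase itself, had 76.4 and 110 CPM at rest and 274 and 333 CPM after stimulation (1.70 ± 0.38 SE, edgeR adjusted p = 0.00159). Nop10, the smallest core protein, had 20.9 and 33.8 CPM at rest and 100 and 52.8 CPM after stimulation (1.48 ± 0.43 SE, edgeR adjusted p = 0.0124), and it was not called once resting library 4 (adjusted p = 0.0650) or tetramer library 4 (0.339) was left out.

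Several nucleolar genes also carry snoRNAs in their introns, so that 1 primary transcript can yield both a protein of the particle and the RNA it holds. In GENCODE M21 (GRCm38), 8 of the 68 genes (11.8%) enclosed 23 annotated snoRNA genes on their own strand: Dkc1, Gnl3, Ncl, Nop56, Nop58, Ppan, Tsr1 and Wdr43. Among all 10251 tested genes matched by symbol 177 did (1.73%). All 8 hosts rose, where 47 of the 177 hosts (26.6%) did, and this is a description, since the hosts were not tested as a set. The libraries were made from polyadenylated RNA and the table gives the host, so the snoRNAs themselves were not measured. Of 10 snoRNAs in these genes with a Snord name, 5 held both letters TGATGA (box C) starting within the first 20 bases and CTGA (box D) starting within the last 15, and they are shown, with both boxes in capitals, as RNAs of the kind held by the particle of Nop56, Nop58 and Fbl. Sequences are DNA letters of the GENCODE M21 transcripts, 5′ to 3′, with GRCm38 coordinates.
Snord11 in Nop58, chr1:59704790-59704873, plus strand: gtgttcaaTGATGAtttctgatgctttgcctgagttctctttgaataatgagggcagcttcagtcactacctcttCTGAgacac
Snord110 in Nop56, chr2:130275506-130275573, plus strand: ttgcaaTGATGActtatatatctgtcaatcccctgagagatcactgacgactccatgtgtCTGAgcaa
Snord69 in Gnl3, chr14:31014287-31014366, minus strand: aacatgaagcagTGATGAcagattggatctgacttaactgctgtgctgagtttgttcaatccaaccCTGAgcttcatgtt
Snord82 in Ncl, chr1:86356261-86356330, minus strand: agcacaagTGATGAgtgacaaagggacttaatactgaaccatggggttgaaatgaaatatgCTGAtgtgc
Snord92 in Wdr43, chr17:71631281-71631365, plus strand: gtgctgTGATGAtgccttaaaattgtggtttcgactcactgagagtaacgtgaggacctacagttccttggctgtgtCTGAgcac

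Factors of the small subunit were mixed: 10 of 21 rose and 0 fell, with a median log2 fold change of 1.04 and a range of -0.41 to 4.22. Of all tested genes 14.3% were called higher and 12.1% lower. Without tetramer library 4 fewer of the 21 were called, and their median was 1.12. Rrp12, which takes part in the export and maturation of the subunits, stood at 2.69 CPM in resting library 4 and 4.27 in resting library 5, and at 68.8 CPM in tetramer library 4 and 62.1 in tetramer library 5. Its log2 fold change of 4.22 ± 0.51 (SE, edgeR adjusted p = 1.29e-06) was the largest of the 68 genes and ranked 61st of all 11312, and it ranged from 3.94 to 4.61 without single libraries. Utp14a, a component of the small subunit processome, had 7.25 and 5.77 CPM at rest and 36.2 and 28.7 CPM after stimulation (2.31 ± 0.51 SE, edgeR adjusted p = 0.00158). Nol6, a protein of the same assembly, had 3.31 and 4.91 CPM at rest and 30.1 and 10.9 CPM after stimulation (2.31 ± 0.60 SE, edgeR adjusted p = 0.00601), but the tetramer libraries stood far apart and without tetramer library 4 the value was 1.42 (adjusted p = 0.362). Nop14, the member of the class with the most counts, had 104 and 81.6 CPM at rest and 245 and 280 CPM after stimulation (1.5 ± 0.37 SE, edgeR adjusted p = 0.00398) and was called without each library.

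Tsr1, a GTPase-like factor of late maturation, was at 2.15 ± 0.41 on the log2 scale, Utp20 at 1.59 ± 0.48, Nol7 at 1.55 ± 0.38, Wdr43 at 1.49 ± 0.38, Nop9 at 1.35 ± 0.40 and Rrp7a at 1.04 ± 0.38, and all 6 were called. Without tetramer library 4 the calls of Utp20 (adjusted p = 0.122), Nol7 (0.120), Nop9 (0.118) and Rrp7a (0.331) were lost. Without tetramer library 5 those of Utp20 (0.100), Nop9 (0.0720) and Rrp7a (0.0909) were lost, without resting library 4 those of Wdr43 (0.0520) and Rrp7a (0.0848), and without resting library 5 that of Rrp7a (0.0998).

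The other 11 factors of the small subunit did not pass the threshold. Nob1, the nuclease that makes the final cut of the small subunit RNA, had 11.8 and 13.5 CPM at rest and 34.2 and 24.5 CPM after stimulation (1.21 ± 0.48 SE, edgeR adjusted p = 0.0624), and DESeq2 called it (adjusted p = 0.0451). Positive values with both tetramer libraries above both resting ones were found for Utp11l (0.91 ± 0.37, adjusted p = 0.0665), Nol11 (0.90 ± 0.39, 0.0881), Utp15 (0.77 ± 0.47, 0.233), Utp3 (0.71 ± 0.37, 0.148), Utp23 (0.63 ± 0.38, 0.219) and Utp6 (0.59 ± 0.38, 0.256). In 4 genes the groups overlapped: Utp14b (0.99 ± 0.73, adjusted p = 0.327), Rrp36 (0.23 ± 0.52, 0.781), Nol10 (-0.13 ± 0.46, 0.867) and Utp18 (-0.41 ± 0.41, 0.484). Utp14b is a retrotransposed copy of Utp14a whose reads may not be told apart from it, and it had 1.86 and 1.28 CPM at rest and 1.64 and 4.65 CPM after stimulation. Utp18 had 44.7 and 81.0 CPM at rest and 48.7 and 46.1 CPM after stimulation, with resting library 5 above the other 3. The signs of Rrp36, Nol10 and Utp18 turned when a single library was left out.

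**Figure D4:**
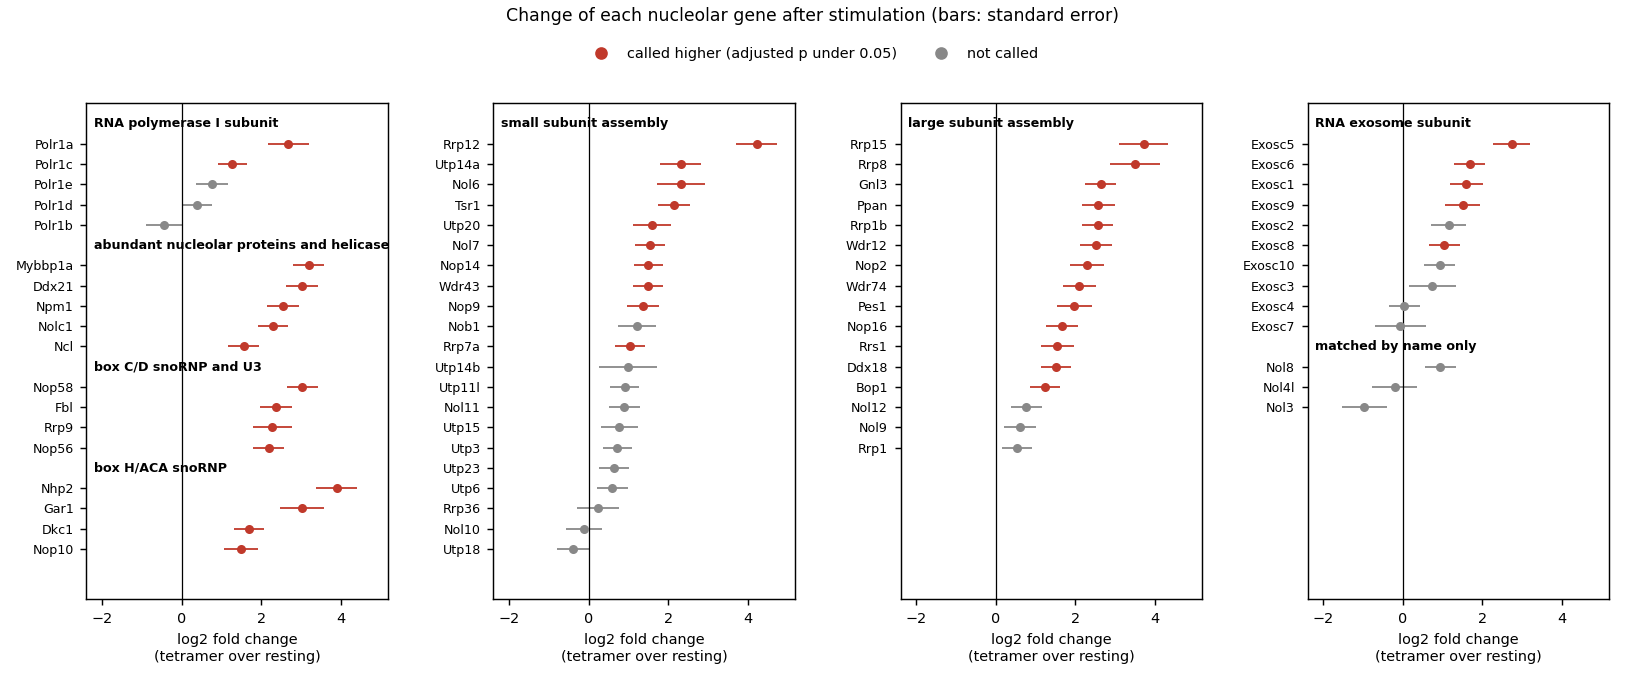
Log2 fold change (tetramer over resting, horizontal axis) with its standard error for each of the 68 genes, grouped by role, with genes called higher in red and genes not called in grey. All members of the snoRNA particles and all 5 abundant nucleolar proteins are red, while the small subunit class runs from Rrp12 at 4.22 to Utp18 at -0.41.

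Of 16 factors of the large subunit 13 rose and 0 fell, with a median of 2.04, where 14.3% of all tested genes were called higher and 12.1% lower. Both tetramer libraries lay above both resting libraries for all 16, where 31.6% of all tested genes did so. Rrp15, needed for maturation of the large subunit RNA, stood at 3.31 CPM in resting library 4 and 1.07 in resting library 5, and at 30.3 CPM in tetramer library 4 and 28.3 in tetramer library 5 (log2 fold change 3.72 ± 0.61 SE, edgeR adjusted p = 6.94e-05). Rrp8, a methyltransferase of the large subunit RNA, had 2.90 and 1.07 CPM at rest and 26.6 and 19.2 CPM after stimulation (3.51 ± 0.63 SE, edgeR adjusted p = 2.09e-04). Both were scarce at rest, with 16 and 5 counts for Rrp15 and 14 and 5 for Rrp8, and their fold changes ranged from 3.16 to 4.76 and from 2.99 to 4.40 without single libraries, highest without resting library 4. Gnl3, nucleostemin, a nucleolar GTPase of dividing cells and the class member with the most counts, had 80.4 and 46.2 CPM at rest and 399 and 389 CPM after stimulation (2.64 ± 0.40 SE, edgeR adjusted p = 2.41e-05).

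The PeBoW complex, made of Pes1, Bop1 and Wdr12 and needed to process the large subunit RNA, rose in all 3 of its members. Wdr12 had 17.0 and 29.1 CPM at rest and 131 and 133 CPM after stimulation (2.52 ± 0.41 SE, edgeR adjusted p = 6.20e-05), Pes1 had 13.7 and 22.7 CPM at rest and 63.8 and 79.5 CPM after stimulation (1.98 ± 0.43 SE, edgeR adjusted p = 0.00145) and Bop1 had 70.2 and 70.5 CPM at rest and 196 and 136 CPM after stimulation (1.24 ± 0.37 SE, edgeR adjusted p = 0.0152). Bop1 was not called without tetramer library 4 (0.97, adjusted p = 0.255), nor on library totals (0.0607), nor when tested against a fold of 1.5 (0.0662). The other 7 that rose were Ppan (2.58 ± 0.42), Rrp1b (2.57 ± 0.39), Nop2 (2.31 ± 0.43), Wdr74 (2.11 ± 0.41), Nop16 (1.67 ± 0.41), Rrs1 (1.55 ± 0.43) and Ddx18 (1.51 ± 0.37). Nop2 methylates the large subunit RNA, Ddx18 is a helicase and Rrs1 brings in the small RNA of the large subunit. Nop16 lost its call without tetramer library 4 (adjusted p = 0.107), and Rrs1 without tetramer library 4 (0.0903) or resting library 5 (0.0555).

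Nol12 (0.77 ± 0.38, adjusted p = 0.137), Nol9 (0.60 ± 0.40, 0.267), a kinase that acts on the ends of cut precursor RNA, and Rrp1 (0.54 ± 0.37, 0.297) did not pass the threshold. Rrp1 and Rrp1b are relatives of the same yeast protein. Rrp1 had 68.8 and 79.7 CPM at rest and 88.2 and 127 CPM after stimulation, whereas Rrp1b had 29.6 and 32.3 CPM at rest and 165 and 202 CPM after stimulation. The ratio of Rrp1b to Rrp1 CPM was 0.431 and 0.405 in the resting libraries and 1.87 and 1.59 in the tetramer libraries. This shift follows from the fold changes of a gene that rose and a gene not called, and it was not tested.

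Among the 10 subunits of the RNA exosome 5 rose and 0 fell, with a median of 1.10, where 14.3% of all tested genes were called higher and 12.1% lower. Fewer of the 10 were called without resting library 5 (median 0.89) or without tetramer library 4 (median 1.11). Exosc5, a subunit of the ring, stood at 8.08 CPM in resting library 4 and 10.5 in resting library 5, and at 68.5 CPM in tetramer library 4 and 55.4 in tetramer library 5 (2.74 ± 0.46 SE, edgeR adjusted p = 8.56e-05). Exosc6, of the same ring, had 33.1 and 35.5 CPM at rest and 121 and 99.7 CPM after stimulation (1.68 ± 0.39 SE, edgeR adjusted p = 0.00231). The whole exon of Exosc6 is covered by Aars on the same strand, so its counts and its rise are uncertain. Exosc1, a cap subunit, had 32.1 and 22.4 CPM at rest and 77.3 and 88.0 CPM after stimulation (1.60 ± 0.41 SE, edgeR adjusted p = 0.00494). Exosc9 rose by 1.5 ± 0.43 on the log2 scale, with an adjusted p of 0.0551 without resting 5, 0.0891 without tetramer 4 and 0.0688 without tetramer 5. Exosc8, the subunit with the most counts, had 63.0 and 50.9 CPM at rest and 144 and 90.4 CPM after stimulation (1.04 ± 0.38 SE, edgeR adjusted p = 0.0438), with an adjusted p of 0.0530 without resting 4, 0.143 without resting 5 and 0.489 without tetramer 4.

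Other ring subunits were not called. Exosc4 had 60.7 and 105 CPM at rest and 94.3 and 76.5 CPM after stimulation, with overlapping groups (0.04 ± 0.38 SE, edgeR adjusted p = 0.949), and Exosc7 had 5.80 and 9.19 CPM at rest and 11.0 and 3.24 CPM after stimulation (-0.07 ± 0.64 SE, edgeR adjusted p = 0.948). The sign of Exosc4 turned with library totals and that of both with single libraries left out. The ratio of Exosc5 to Exosc4 CPM was 0.133 and 0.0994 at rest and 0.727 and 0.725 after stimulation. This pair sets the exosome subunit with the largest rise against a subunit not called. Its shift therefore follows from their fold changes and was not tested. Exosc2, a cap subunit, just missed the threshold (1.16 ± 0.44 SE, edgeR adjusted p = 0.0510) and was called without resting library 4 (1.70, adjusted p = 0.0120), by DESeq2 (0.0460), by limma-voom (0.0474) and with DESeq2 size factors (0.0474). The cap subunit Exosc3 (0.74 ± 0.60, adjusted p = 0.376) and Exosc10, a nuclease bound to the nuclear exosome (0.92 ± 0.39, 0.0794), were not called. Dis3, the main nuclease of the exosome and not a member by name, had 2.07 and 1.28 CPM at rest and 26.4 and 25.3 CPM after stimulation (3.92 ± 0.61 SE, edgeR adjusted p = 4.05e-05). Of 14 exosome nucleases and cofactors 2 rose and 0 fell, Dis3 and Mpp6, the share of all tested genes called higher being 14.3%, and mouse Mpp6 (1.84 ± 0.42) names a membrane scaffold protein that shares an alias with an exosome factor, so it belongs to that list by symbol alone.

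**Figure D5:**
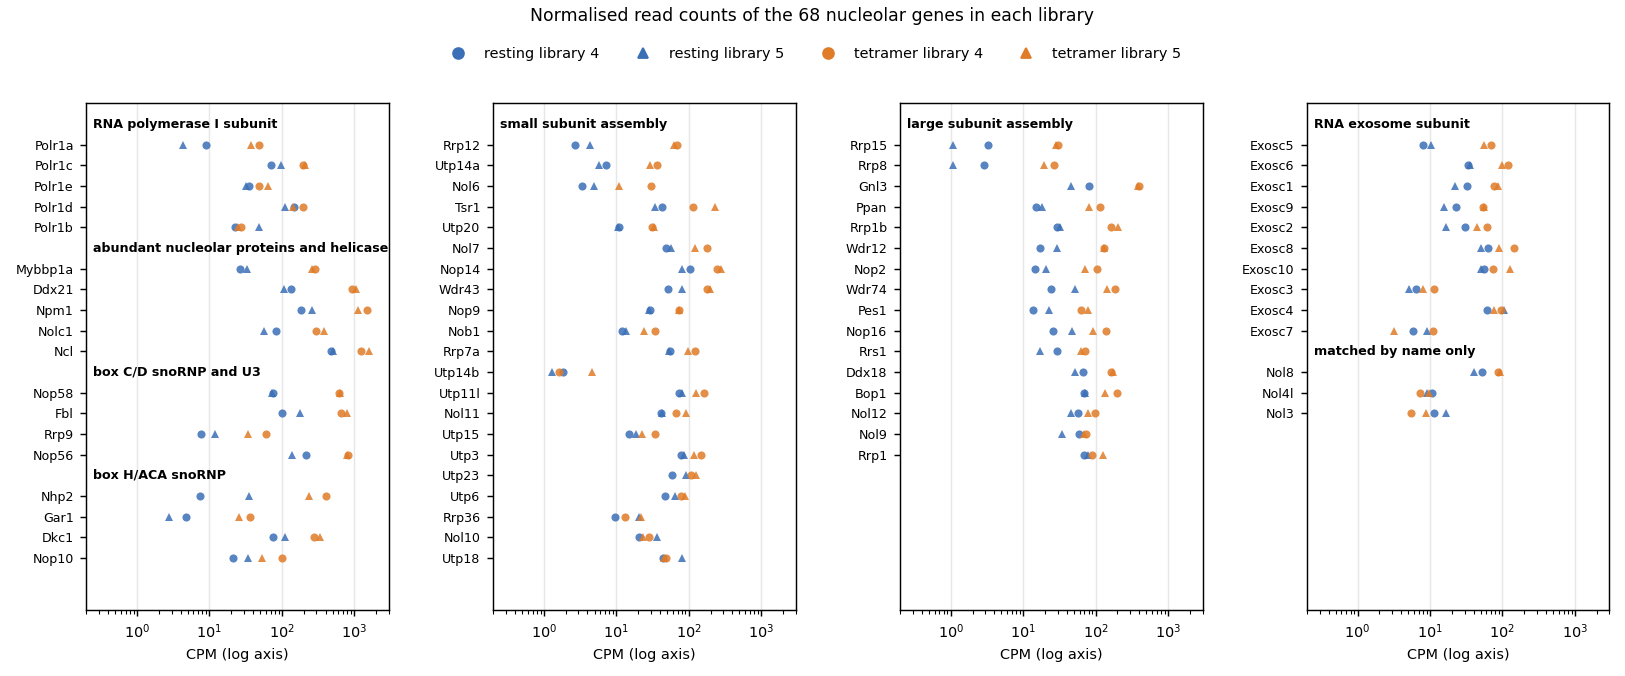
CPM of each of the 68 genes on a log axis in resting libraries (blue) and tetramer libraries (orange), with circles for library 4 and triangles for library 5, grouped by role. Orange points lie to the right of both blue points for 58 genes, and the widest gap within resting libraries is that of Nhp2, at 7.46 and 35.5 CPM.

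The 3 genes taken by name alone did not pass the threshold. Nol3, which encodes a cytoplasmic inhibitor of apoptosis, had 11.2 and 16.9 CPM at rest and 5.52 and 8.70 CPM after stimulation, below both resting libraries (-0.98 ± 0.57 SE, edgeR adjusted p = 0.203). Nol4l had 10.8 and 8.98 CPM at rest and 7.37 and 9.71 CPM after stimulation (-0.21 ± 0.57 SE, edgeR adjusted p = 0.816) and Nol8 had 52.8 and 40.6 CPM at rest and 87.2 and 92.6 CPM after stimulation (0.94 ± 0.38 SE, edgeR adjusted p = 0.0684). Left without these 3, the other 65 genes had 43 higher, 0 lower and a median of 1.55.

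Of 91 further ribosome assembly genes in 4 lists, 50 rose, 0 fell and 41 were not called, with a median of 1.38. Of all tested genes 14.3% were called higher and 12.1% lower, shares to be set beside each count with all libraries in this paragraph. Both tetramer libraries lay above both resting ones for 70 of the 91, where 31.6% of all tested genes did so. They lay below for 7, where 33.7% did. Small subunit factors rose in 23 of 35 cases, led by Pwp2 (3.51 ± 0.55 SE, edgeR adjusted p = 4.38e-05) and Pno1 (2.50 ± 0.46 SE, edgeR adjusted p = 2.47e-04), and large subunit factors in 19 of 36, led by Mrto4 (2.79 ± 0.39 SE, edgeR adjusted p = 1.00e-05) and Rpf2 (2.69 ± 0.39 SE, edgeR adjusted p = 1.60e-05). Pwp2, a scaffold of the small subunit processome, had 3.94 and 2.35 CPM at rest and 32.7 and 39.6 CPM after stimulation, and Mrto4, a factor of the stalk of the large subunit, had 35.6 and 32.3 CPM at rest and 198 and 273 CPM after stimulation. Of 10 assembly factors for snoRNA particles and nucleolar scaffold proteins 6 rose, with Znhit6 at 2.56 ± 0.43 and Ruvbl2, a helicase-like ATPase, at 2.10 ± 0.50, the latter not called without tetramer library 4 (adjusted p = 0.161). Without tetramer library 4 the counts were 12 of 35 for the small subunit, 10 of 36 for the large subunit and 3 of 10 for the snoRNA particles, and the large subunit count was 11 without tetramer library 5.

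Promoters of the nucleolar genes were searched for CACGTG, the E-box that Myc and other basic helix-loop-helix factors bind. RefSeq windows (GRCm38.p6) of 250 bases before the start were at hand for 56 of the 68 genes. A gene was counted if any of its windows held the letters. They occurred in 6 of 56 genes (10.7%, exact 95% interval 4.03 to 21.9%), near the share of all 9012 tested genes with a window (9.98%). Of all 32851 RefSeq windows, counted singly and not by gene, 6.02% held them, a share inside that interval. Median GC content was 57% in the 56 and 59.6% in the tested genes. Of 36 genes that rose 3 held the letters, as did 3 of 20 not called. CACGCG, a related form searched on both strands, occurred in 8 of 56 (14.3%) against 16.5% of tested genes. A site further inside a gene or beyond the window would not be seen. The 6 sites are shown in 30 bases each, 5′ to 3′ on the gene's strand with CACGTG in capitals. They are the matches in the windows of the 56 genes, some of which have several windows, and the first 3 belong to genes that rose.
Exosc5, chr7:25659097-25659126, plus strand: taaacgctgagcCACGTGctagggccaact
Nop2, chr6:125131811-125131840, plus strand: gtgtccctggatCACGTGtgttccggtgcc
Rrp7a, chr15:83122992-83123021, minus strand: gtgcctgtgcacCACGTGtcctggaactgg
Utp14b, chr1:78658365-78658394, plus strand: cgcgggcgcgggCACGTGggtggggtcgtc
Nol11, chr11:107189407-107189436, minus strand: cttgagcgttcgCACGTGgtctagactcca
Utp18, chr11:93885769-93885798, minus strand: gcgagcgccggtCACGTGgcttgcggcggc
The motif began 44 bases before the start in Exosc5, 60 in Nop2, 208 in Rrp7a, 63 in Utp14b, 43 in Nol11 and 20 in Utp18.

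The 68 genes lie on 18 chromosomes of GRCm38. Exons of 30 overlap those of another GENCODE gene, on the opposite strand except for Exosc6 and Utp14b. No source used here says whether the authors counted by strand, so these genes can share reads with a neighbour. Over 1000 shared exon bases were found for 4 genes: Exosc6 with Aars, Tsr1 with Srr, Nop9 with Cideb and Nol3 with 4931428F04Rik. Exosc6 lies on the strand of Aars and its whole exon is covered, and Utp14b shares exon bases with Acsl3 on its own strand, so counts of both are uncertain.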

How the data were processed

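RNA was sequenced from 4 libraries, 2 resting and 2 tetramer-stimulated. The authors deposited whole-number read counts per gene symbol, and per the submitters' processing notes the tools were Bowtie2 and DESeq2 and the build mm9, with no versions. Poly(A) RNA gave cDNA of 200 to 400 nt after 23 PCR cycles, per the labels' protocols. No source used here says how reads were counted. Columns were matched to groups by name, not to single samples. Tmem138 was dropped, since 1 of its cells holds no number, and 18 symbols had become dates. The lowest count is 1, and a gene with 0 counts in some library is not analysed here.

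All 11312 genes past edgeR's default filter (of 12020) were fitted with edgeR 4.0.16 in R 4.3.3: TMM scaling, quasi-likelihood F test, Benjamini-Hochberg adjustment over all genes, threshold 0.05, biological coefficient of variation 0.322. Standard errors come from the F statistic. The fit was tested on simulated counts. Totals of 4168438 to 5495521 counts limit precision for genes with few counts. Alternatives were DESeq2 size factors, library totals, no filter, a filter at a mean of 10 CPM, DESeq2 1.42.0, limma-voom (limma 3.58.1), a test against a fold of 1.5, each library left out, and the library number as a block.

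The members and lists were chosen with earlier results of these data known. Within each role the 3 called genes with the largest change and the gene with the most counts were given values by library, each gene not called was named with its fold change and adjusted p, and in each further list the 2 called genes with the largest change. For each list of other cells the marker with the most counts was named.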

Additional observations from a re-analysis of the deposited data

How the results depend on the processing

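Over all alternatives the number of nucleolar genes called higher ran from 30 to 45, with 0 called lower in each. Their median log2 fold change was 1.21 with library totals and 1.54 with the stricter filter, and it ran from 1.47 to 1.51 without single libraries, against 1.51 in the reported fit. Of 128 tested genes in the further lists, 59 were called higher and 1 lower. The count called lower was 6 with library totals and 2 with the replicate block. Without single libraries, 31 to 56 were called higher and 0 to 4 lower. Signs turned for genes that were not called: with library totals Exosc4 (-0.24), Il2rb (-0.20) and Rrp36 (-0.039). Without single libraries the log2 fold change ran from -0.29 to 0.52 for Exosc4, from -1.19 to 0.57 for Exosc7, from -0.38 to 0.47 for Il2rb, from -0.47 to 0.38 for Nol10, from -0.87 to 0.22 for Polr1b, from -0.20 to 0.90 for Rrp36 and from -0.76 to 0.11 for Utp18. The cause was not tested. Library numbers 4 and 5 are not said to pair samples, and deviations of same-numbered libraries from their group means correlated at 0.04 across genes. With the number as a replicate block 42 nucleolar genes were called higher and 0 lower (median 1.52). Exosc2 gained its call under this block (adjusted p = 0.0281), and Exosc8 (0.0609) and Rrp7a (0.0549) lost theirs. In the 100 bases before the start CACGTG occurred in 8.93% of the 56 genes with a window (exact 95% interval 2.96 to 19.6%). The share of all tested genes with a window was 5.61%. In 250 bases the shares were 10.7% and 9.98%, and for CACGCG they were 14.3% and 16.5%. Genes at a few counts, such as Rrp8, Rrp15 and Utp14b, are limited by depth.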
